A study of Mus musculus with 3 samples.

Results

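The genes described are Cubn, Amn, Lrp2, Dab2, Ctsh, Ctsl and Lgmn, 7 genes of endocytic uptake and lysosomal protein breakdown, which were taken by symbol from the 31054 features of the count matrices. All 7 were found, each under 1 identifier. Their levels were measured by single-cell RNA-seq in 3 wild-type male mouse embryos of the C57BL/6 x 129 SvEv background, each dissociated on its own and captured as 1 library. The embryos were collected at embryonic day 8.0 and chosen at 0 to 1 somite (a label field allows up to 2), and the study used them to define the transcriptome of the left-right organizer (LRO). Extraembryonic tissue was dissected away before dissociation, so the visceral endoderm measured is what remained on the embryo. None of these 3 embryos was treated and they hold no second genotype or stage, so the comparisons are between cell classes within the same embryos. The study's bulk RNA-seq of cells sorted from FOXJ1-EGFP transgenic embryos was not used here.

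The visceral endoderm is the absorptive outer epithelium of the early mouse conceptus. Its apical receptors bind maternal and uterine proteins, clathrin-coated vesicles carry the cargo to endosomes, and lysosomal proteases break it down before a placenta supplies the embryo. Cubilin (Cubn) binds cargo such as albumin and intrinsic factor with cobalamin but has no membrane span of its own, and amnionless (Amn) anchors it and carries it to the surface. Megalin (Lrp2) is a giant endocytic receptor that works beside them, and Dab2 is the adaptor that links the tails of these receptors to clathrin. Cathepsin H (Ctsh), cathepsin L (Ctsl) and legumain (Lgmn) are cysteine proteases of the endosome and lysosome.

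Sequence before the start sites is shown for the receptors and the adaptor, since these genes differed in the class next after visceral endoderm. By mean level this class was surface ectoderm for Lrp2 and Dab2 and gut endoderm for Cubn and Amn. A short stretch is shown for the proteases in which the same E-box was found. The windows are from RefSeq (build GRCm38.p6), which had entries for 6 of the 7 genes (8 windows of 300 bases, with 2 each for Dab2 and Lgmn); Ctsh was not among them. Capitals mark an E-box (CACGTG, the core of the element bound by TFEB, a regulator of lysosome genes, which reads the same on both strands) or a GATA hexamer (AGATAA and its variant AGATAG, or TGATAA and its variant TGATAG, on either strand).
Cubn, chr2:13491877-13492126, minus strand: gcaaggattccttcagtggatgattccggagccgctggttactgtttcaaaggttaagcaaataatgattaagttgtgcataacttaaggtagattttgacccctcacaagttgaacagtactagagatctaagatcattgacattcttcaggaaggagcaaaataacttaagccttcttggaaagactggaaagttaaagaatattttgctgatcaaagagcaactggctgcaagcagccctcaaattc
Amn, chr12:111270846-111271095, plus strand: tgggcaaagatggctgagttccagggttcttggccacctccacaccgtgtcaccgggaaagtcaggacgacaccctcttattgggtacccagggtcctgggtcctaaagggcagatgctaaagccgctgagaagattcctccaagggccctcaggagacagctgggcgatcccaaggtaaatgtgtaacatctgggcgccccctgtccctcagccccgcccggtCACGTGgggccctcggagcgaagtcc
Lrp2, chr2:69586080-69586279, minus strand: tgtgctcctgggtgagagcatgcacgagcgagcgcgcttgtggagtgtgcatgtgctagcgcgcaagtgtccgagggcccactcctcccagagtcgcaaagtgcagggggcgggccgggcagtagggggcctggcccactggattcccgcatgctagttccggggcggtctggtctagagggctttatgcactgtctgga
Dab2, first window, chr15:6299539-6299788, plus strand: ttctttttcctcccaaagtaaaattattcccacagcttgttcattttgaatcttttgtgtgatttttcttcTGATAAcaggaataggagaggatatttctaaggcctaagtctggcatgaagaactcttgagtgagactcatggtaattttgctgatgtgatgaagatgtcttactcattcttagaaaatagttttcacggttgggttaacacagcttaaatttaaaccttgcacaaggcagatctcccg
Ctsl, chr13:64370739-64370768, minus strand: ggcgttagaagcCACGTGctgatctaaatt
Lgmn, second window, chr12:102439124-102439153, minus strand: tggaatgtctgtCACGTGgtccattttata
The E-box began at base 225 of the 300-base window of Amn, base 15 of that of Ctsl and base 202 of the second of Lgmn, and 3 of the 8 windows held one, against 7.15% of 32851 windows of all genes. A GATA hexamer was in 2 of the 8 windows, the first of Dab2 and the second of Lgmn, against 29.8% of all windows. GTTAAT, a core of HNF1 sites, searched on both strands, was in 1 window, the second of Dab2, against 7.10%. None of these letters was in the windows of Cubn or Lrp2 or the first of Lgmn. These matches describe the windows only.

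In GENCODE M21 (GRCm38), Cubn lies at chr2:13276338-13491813 on the minus strand, with 67 exons in its longest transcript, and Lrp2 lies on the same chromosome and strand at chr2:69424340-69586065, with 79 exons. Amn is a short gene of 12 exons at chr12:111271095-111276426 on the plus strand, and Dab2 has 15 exons at chr15:6299788-6440712 on the plus strand. Ctsh has 12 exons at chr9:90054152-90076089 on the plus strand, Ctsl has 9 exons at chr13:64359337-64370890 on the minus strand, and Lgmn has 14 exons at chr12:102394084-102439813 on the minus strand. The annotated genes Gm16311 and Gm47123 overlap Dab2 and Ctsl on the opposite strand.

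The matrices held 6579, 8621 and 8333 barcodes with a median of 26011, 14050 and 15674 unique molecular identifiers (UMIs, which count each captured molecule once) in embryos 1, 2 and 3, and 5795, 7956 and 7844 cells passed quality control. Classes were set by summed UMIs of marker genes per 10000 UMIs of a cell, with no member among the markers. Visceral-endoderm-like cells held at least 30 UMIs of Ttr and Apoa1 per 10000, and 13 other lists defined classes such as gut-endoderm-like and neural-plate-like. Cells over exactly 1 cut-off were used, 3618, 5449 and 4841 of the embryos, and the rest were over several (714, 1136 and 809) or none (1463, 1371 and 2194). The visceral endoderm class held 267, 1160 and 919 cells, which were 4.61%, 14.6% and 11.7% of the cells of embryos 1, 2 and 3. The gut endoderm, surface ectoderm and neural plate classes held 968, 702 and 1887 cells over the 3 embryos, and embryo 1 had no erythroid-like cell. Pairs of embryos shared 18 to 22 barcodes.

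The class names were checked against markers that did not set them, except Sox17, which is in both gut endoderm lists. The 8 check markers of visceral endoderm summed to 20336 to 22741 CPM (UMIs per 1000000 UMIs summed over the class in an embryo) in visceral-endoderm-like cells, against 3197 to 4203 in gut-endoderm-like, 160 to 282 in surface-ectoderm-like and 223 to 396 in neural-plate-like cells. Afp, a fetal serum protein of the visceral endoderm, was at 546 ± 69.9 CPM (SD, n = 3) there and at 18.9 ± 7.44 in gut. The 6 check markers of gut endoderm summed to 4077 to 5092 CPM in gut-endoderm-like cells and 1412 to 1882 in surface-ectoderm-like cells, the next class. Krt8, Krt18 and Epcam are in this list and in that of surface ectoderm, so the gut sum is in part one of shared epithelial genes. The check markers of neural plate, 5 genes, summed to 393 to 503 CPM in neural-plate-like cells and 209 to 221 in surface-ectoderm-like cells, again the next. The 6 check markers of surface ectoderm went against that class as a list, since they summed to 1711 to 2237 CPM in it and 3566 to 4544 in gut, where the epithelial genes Krt8, Krt18 and Epcam were higher. Of the remaining check markers of surface ectoderm, Wfdc2 and Msx1 were highest in surface-ectoderm-like cells (131 ± 12.8 and 288 ± 21.6 CPM) among these 4 classes. Trp63 was near 0 in all 4 (1.52 ± 0.948 CPM in surface-ectoderm-like cells). The check lists were not examined in the other classes, and of their genes Krt8 is given below for extraembryonic-mesenchyme-like cells. Of other cells, the 4 macrophage markers summed to at most 1.01 CPM in the 4 classes. The 5 trophoblast markers summed to 1.29 to 15.3 CPM by embryo in surface-ectoderm-like cells and to at most 3.36 CPM in the others. The 5 parietal endoderm markers summed to 401 to 481 CPM in visceral-endoderm-like cells and 440 to 524 in gut. They summed to 220 to 234 CPM in surface-ectoderm-like and 167 to 186 in neural-plate-like cells, so as a list they were not low in the visceral class. There Thbd was at 0.149 and Plat at 0.732 CPM, and Sparc, Lama1 and Lamb1 made up nearly all of the sum.

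Cubn was the gene most nearly limited to the visceral endoderm. Its level there was 921, 791 and 898 CPM in embryos 1, 2 and 3 (870 ± 69.5, SD, n = 3). In gut-endoderm-like cells it was 9.37, 11.1 and 17.0 CPM, and in the other 12 classes the mean lay between 3.88 (endothelium) and 9.65 CPM (extraembryonic mesenchyme). Every visceral endoderm value was far above every value of any other class, and the ranges of the other classes overlapped along most of their order. Amn, its partner, had 747, 799 and 706 CPM in the visceral endoderm (750 ± 46.4). Unlike Cubn it had a clear second class, gut endoderm, at 40.7, 46.9 and 57.9 CPM (48.5 ± 8.72), above the 3.72 to 7.23 CPM of the means of the other 12 classes. The lowest gut value of Amn lay above the highest value of any of those 12, which was 15.8 CPM in primordial germ cells, a class with 4 UMIs of Amn in all.

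Lrp2 had another order. The visceral endoderm held 182, 262 and 249 CPM (231 ± 43.0), and surface-ectoderm-like cells held 186, 172 and 211 CPM (190 ± 19.8). The 2 ranges overlapped, and in embryo 1 the surface ectoderm value was the higher. Extraembryonic-mesenchyme-like cells followed with 72.7 ± 10.9 CPM and neural-plate-like cells with 43.2 ± 5.40, each apart from the next class. Gut-endoderm-like cells held 9.19, 8.58 and 11.0 CPM (9.60 ± 1.28), close to the 6.29 to 13.1 CPM of LRO, mesodermal and caudal classes. Of the 446 extraembryonic-mesenchyme-like cells, 181 held a UMI of a surface ectoderm marker, and Lrp2 was at 82.6 ± 14.6 CPM in those and 56.8 ± 5.74 in the other 265, a split made after the values were seen. That class also held 1172 ± 156 and 1363 ± 128 CPM of the epithelial keratin gene Krt8 in the 2 sets of cells, against 574 ± 95.5 in surface-ectoderm-like cells. Hand1, which is not among the markers of the class, was at 445 ± 56.5 and 553 ± 44.5 CPM in the 2 sets. No check list was set for this class, so its name rests on its own 5 markers.

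Dab2 was at 1344, 1324 and 1285 CPM in the visceral endoderm (1318 ± 30.1), the smallest spread between embryos among the 7 genes. It was second in surface ectoderm (99.3, 91.2 and 92.7 CPM; 94.4 ± 4.35), followed by extraembryonic mesenchyme (72.3 ± 5.74), cardiac and pharyngeal mesoderm (70.6 ± 16.1) and gut endoderm (56.2 ± 13.0), whose ranges overlapped. Neural-plate-like cells held 23.9 ± 10.8 CPM. Its mean in surface ectoderm was 14.0 times under that of the visceral endoderm.

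Of the proteases, Ctsl had 2933, 3595 and 2989 CPM in the visceral endoderm (3172 ± 367) and was present in every class. The other 13 means ran from 257 ± 16.1 CPM in presomitic mesoderm, 257 ± 51.5 in endothelium and 249 ± 39.3 in gut endoderm to 85.6 ± 4.89 in erythroid-like cells (n = 2 embryos). Neighbours in that order overlapped down to surface ectoderm (152 ± 13.9), and the erythroid-like values lay below all others. Ctsh had 844, 740 and 696 CPM in the visceral endoderm (760 ± 76.0), 65.1, 60.5 and 85.6 in gut endoderm (70.4 ± 13.4) and 26.6 to 41.8 in endothelium (32.1 ± 8.42). These 3 classes were apart from each other, and the other 11 means were between 3.45 and 11.4 CPM. The lowest of them, in primordial germ cells, rests on 3 UMIs. Lgmn had 964, 1126 and 822 CPM in the visceral endoderm (971 ± 152) and 62.2 ± 2.96 in gut endoderm. Primordial germ cells (44.8 ± 11.8, on 40 UMIs) and LRO and notochord cells (33.4 ± 8.52) came next, and the remaining 10 means were between 12.1 and 26.5 CPM, with erythroid-like cells lowest (9.93 and 14.4 CPM).

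**Figure D1:**
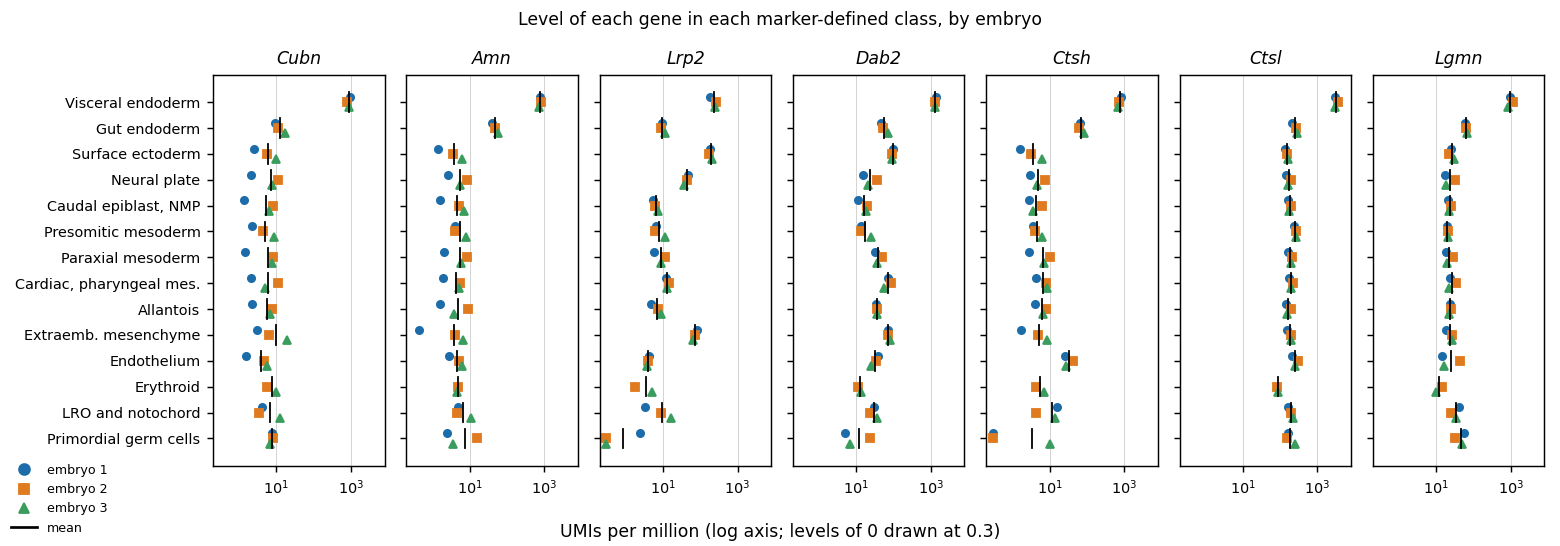
CPM (log axis) of each gene in 14 marker-defined classes; points are embryos and bars are means. All 7 genes had their highest mean in visceral endoderm, with Lrp2 in surface ectoderm (190 CPM) close behind its visceral endoderm level (231 CPM).

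Shares of cells with a UMI were compared after thinning each cell to 5000 UMIs, which left out 20 visceral-endoderm-like and 11 gut-endoderm-like cells. In the visceral endoderm, Ctsl was found in 100% of thinned cells, Dab2 in 99.3%, Lgmn in 98.3%, Cubn in 96.9%, Amn in 96.3%, Ctsh in 95.6% and Lrp2 in 63.4% (means of 3 embryos). In surface ectoderm Lrp2 was found in 43.8% and Dab2 in 34.4% of cells, and in gut endoderm Lgmn was found in 22.6%, Ctsh in 20.5%, Dab2 in 20.3% and Amn in 14.6%. Erythroid-like cells, which should lack these receptors, gave 3.03% for Cubn, 1.99% for Amn, 0.556% for Lrp2, 4.46% for Dab2, 2.27% for Ctsh, 29.5% for Ctsl and 4.88% for Lgmn (n = 2 embryos), with a median of 15239 UMIs per cell before thinning against 16699 in the visceral endoderm. The Cubn share was 4.58% in gut (2.25% to 6.88% by embryo) and 2.52% in neural plate (1.57% to 3.43%). In erythroid-like cells it was 1.79% to 4.27% by embryo. Embryo 1 had no erythroid-like cell, so these means do not cover the same embryos. All 7 genes were found together in 137 of 262, 702 of 1152 and 522 of 912 thinned visceral-endoderm-like cells (52.3%, 60.9% and 57.2%) and in 0 of 957 gut, 0 of 702 surface ectoderm and 0 of 1882 neural plate cells. These counts allow shares of cells with a UMI of all 7 of up to 0.313%, 0.427% and 0.159%, and at the low shares of the single genes there they say nothing of cells that express all 7. Within the visceral endoderm, the pairwise correlations of log counts over thinned cells were weak, between -0.11 and 0.33 over the 21 pairs and 3 embryos (n = 262 to 1152 cells, which share a library and a depth). Counting noise at 5000 UMIs also weakens such correlations, by an amount that was not tested. Cubn and Amn were found together in 93.9%, 93.1% and 93.2% of cells, and the product of their separate shares was 94.0%, 92.8% and 93.1%. At separate shares this near 100% the joint share could hardly differ from the product. These values thus do not tell whether the 2 genes vary together.

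As a reference for low values, the level of each gene that the class's Ttr and Apoa1 would bring was computed from the ratios in visceral-endoderm-like cells of the same embryo. For Cubn the measured mean was 0.63 to 2.47 times this value in the 13 other classes (0.33 to 5.16 by embryo), with 0.67 in gut endoderm (12.5 CPM measured and 18.6 from the trace) and 0.63 in LRO and notochord cells. The value of 5.16 is from primordial germ cells, a class with 6 UMIs of Cubn in all. Amn reached 3.03 times in gut endoderm (2.64 to 3.36 by embryo), and its means in the others were 0.78 to 1.87 times. By embryo, Amn reached 3.525 in endothelium and 3.06 in presomitic mesoderm, so single values elsewhere reached the gut range. Ctsh reached 4.38 times in gut endoderm (3.67 to 5.04 by embryo) and 13.1 in endothelium, with means of 0.92 to 2.39 elsewhere. By embryo, Ctsh reached 4.08 in cardiac and pharyngeal mesoderm and 3.90 in allantois, within the gut range. Lrp2 reached 182 times in surface ectoderm (124 to 665 by embryo), 64.7 in extraembryonic mesenchyme and 30.4 in neural plate. Dab2 ran from 1.67 times in erythroid-like cells and 2.00 in gut endoderm to 17.0 in surface ectoderm, and Ctsl from 3.65 in gut endoderm to 23.4 in endothelium. Lgmn ran from 2.23 times in erythroid-like cells and 3.01 in gut endoderm to 8.86 in primordial germ cells. The source of the trace was not tested. The multiples use ratios of the whole visceral endoderm class, and these ratios differed within it. Its cells were divided into 3 equal groups by Ttr and Apoa1. The lowest group held 5975 to 6843 CPM of both by embryo, with Cubn at 809 and Amn at 595 CPM. The highest held 13853 to 16434 CPM, with Cubn at 899 and Amn at 920 CPM. How the multiples change with the cells taken was not tested.

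**Figure D2:**
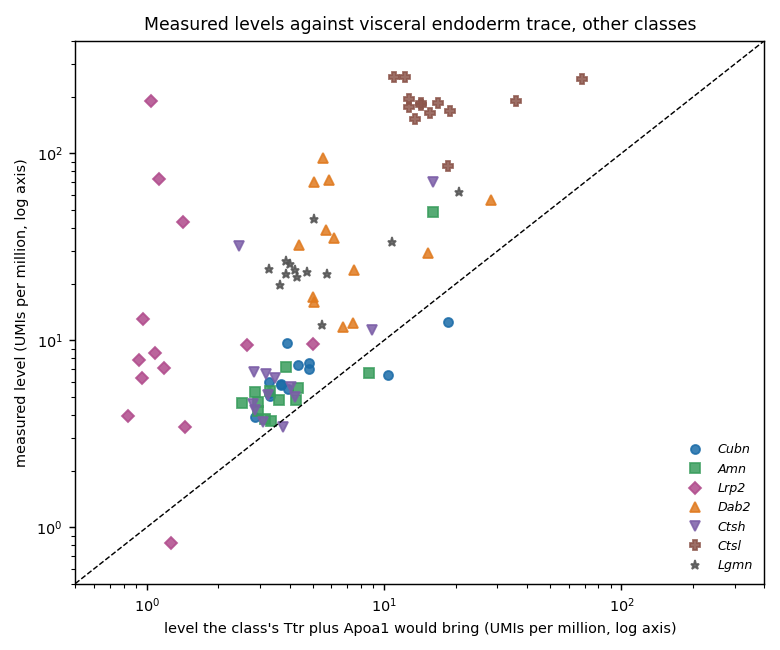
Mean level measured in each of the 13 classes other than visceral endoderm (vertical, CPM, log axis) against the level that the class's Ttr and Apoa1 would bring (horizontal, log axis); the dashed line is equality. The class means of Cubn lie at 0.63 to 2.47 times the line (0.33 to 5.16 by embryo), whereas Lrp2 in surface ectoderm lies 182 times above it.

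The visceral endoderm was compared with the gut endoderm, its neighbour in the endodermal sheet, by edgeR's quasi-likelihood test on UMIs summed per embryo and class (3 against 3 sums, Benjamini-Hochberg adjustment over 12100 genes). All 7 genes were higher in the visceral endoderm in 3 of 3 embryos and passed the test, where 67.3% of all genes tested were called, 33.4% higher and 34.0% lower. Cubn differed most, by 6.37 ± 0.18 (log2, SE; 82.7-fold), followed by Lrp2 (4.80 ± 0.18, 27.9-fold) and Dab2 (4.76 ± 0.15, 27.0-fold). Lgmn (4.16 ± 0.13), Amn (4.16 ± 0.14), Ctsl (3.87 ± 0.15) and Ctsh (3.63 ± 0.14, 12.4-fold) followed. The gut level of Cubn was 0.67 times what Ttr and Apoa1 would bring, so its fold rests on a value under that trace. The adjusted p by edgeR lay between 1.96e-10 (Cubn) and 1.49e-09 (Ctsh, Ctsl). The study lists all 7 among its extraembryonic endoderm markers from these cells, so these directions are not independent evidence. With library size alone as the scaling, the median of all genes moved to -0.21 and 37.3% of the calls were higher instead of 49.5%, and the 7 genes stayed called.

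Against surface ectoderm, all 7 genes were again called higher in the visceral endoderm, where 69.7% of 11734 genes were called, 36.3% higher and 33.4% lower. The other 6 differed by 3.96 ± 0.09 (Dab2) to 7.93 ± 0.24 (Ctsh) on the log2 scale. In surface ectoderm, Ctsh, Amn and Cubn were at 1.19, 1.20 and 1.60 times the value that Ttr and Apoa1 would bring. The sizes of their folds thus rest on values near that trace. Lrp2 differed by 0.45 ± 0.14 (1.37-fold, adjusted p = 0.0118 by edgeR) and was higher in 2 of 3 embryos. Its call was lost with library size as the scaling (0.28, adjusted p = 0.0646) and without embryo 2 (0.27, adjusted p = 0.192), and its direction turned with the other cut-offs doubled (-0.12, adjusted p = 0.553). That stricter set of surface-ectoderm-like cells held 266 CPM of Lrp2, and the set with cut-offs halved 155 CPM.

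Against neural plate, all 7 genes were called higher in the visceral endoderm, where 76.5% of 13112 genes were called, 37.9% higher and 38.6% lower. Ctsh (7.50 ± 0.24), Amn (7.35 ± 0.30) and Cubn (7.23 ± 0.41) differed most and Lrp2 least (2.59 ± 0.15, 6.02-fold), with Dab2 (5.98 ± 0.27), Lgmn (5.60 ± 0.24) and Ctsl (4.39 ± 0.15) between them. In neural plate, Ctsh, Amn and Cubn were at 1.18, 1.27 and 1.46 times the value that Ttr and Apoa1 would bring. Their place at the top thus rests on values near that trace. These comparisons share the visceral endoderm sums.

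Surface ectoderm was then compared with neural plate, the other ectodermal class, and only Lrp2 and Dab2 were called. Lrp2 was higher by 2.14 ± 0.11 (4.42-fold, adjusted p = 4.91e-07 by edgeR) and Dab2 by 2.02 ± 0.25 (4.06-fold, adjusted p = 0.000187), each in 3 of 3 embryos, where 19.5% of 11952 genes were called, 11.0% higher and 8.47% lower. The receptor and its adaptor were thus both higher in surface ectoderm, whereas Cubn (-0.24 ± 0.60), Amn (-0.56 ± 0.53), Ctsh (-0.45 ± 0.48), Ctsl (-0.15 ± 0.13) and Lgmn (0.20 ± 0.23) did not pass. Their ranges overlapped between the 2 classes, and for Cubn, Amn and Ctsh the means were 1.18 to 1.60 times the value that Ttr and Apoa1 would bring. In the 159 cells over both of these cut-offs, which are in neither class, Lrp2 was at 106 ± 57.3 and Dab2 at 35.1 ± 12.3 CPM.

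Against neural plate, the gut endoderm was higher for 5 of the 7 genes and lower for Lrp2, where 49.4% of 12572 genes were called, 26.2% higher and 23.2% lower. Ctsh differed most (3.82 ± 0.26, 14.2-fold, adjusted p = 5.54e-07 by edgeR), then Amn (3.14 ± 0.31, 8.80-fold, adjusted p = 9.23e-06), Lgmn (1.40 ± 0.20), Dab2 (1.18 ± 0.28) and Ctsl (0.49 ± 0.15). Lrp2 fell by 2.26 ± 0.14 on the log2 scale and was 4.77-fold lower in gut. Cubn was at 0.80 ± 0.47 and did not pass (adjusted p = 0.183); with the replicate (embryo) as a block it was at 0.97 ± 0.26 and was called (adjusted p = 0.00481), and it was higher in gut in 2 of 3 embryos. Without embryo 3, Dab2 (0.89, adjusted p = 0.0794) and Ctsl (0.37, adjusted p = 0.158) were no longer called.

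**Figure D3:**
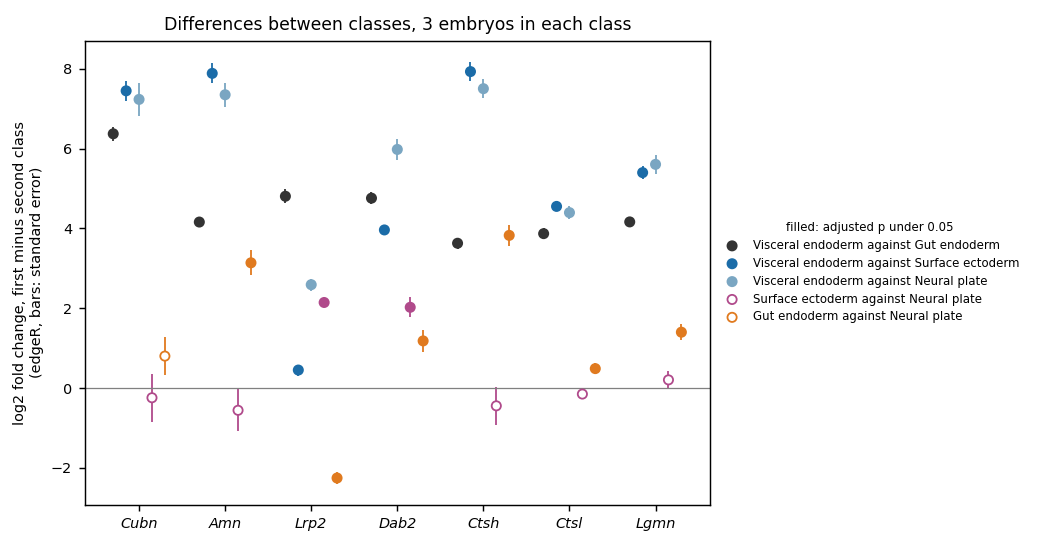
Log2 fold changes of the 7 genes by edgeR in 5 comparisons of classes (first minus second; bars are standard errors, filled points passed an adjusted p of 0.05). Lrp2 was the only one of the 7 that was lower in gut endoderm than in neural plate (-2.26) and differed by under 1 between visceral endoderm and surface ectoderm (0.45).

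Gut-endoderm-like cells differed among themselves by their Ttr and Apoa1. In the 674 cells under 1 UMI of both per 10000, Cubn was at 4.24 ± 1.72, Amn at 23.8 ± 8.59, Ctsh at 50.0 ± 14.6, Dab2 at 32.0 ± 1.70, Ctsl at 203 ± 26.5 and Lgmn at 44.7 ± 2.08 CPM. In the 108 cells with 5 to 30 UMIs, these genes were at 60.9 ± 11.0, 199.7 ± 66.9, 185 ± 53.7, 181 ± 45.1, 508 ± 41.0 and 179 ± 28.0 CPM, without overlap between embryos of the 2 sets. Lrp2 was at 10.2 ± 1.83 CPM in the first set, on 156 UMIs. It was at 7.03 ± 2.09 in the 186 cells between them and 10.1 ± 0.316 in the last, on 26 UMIs each. Of the 7, Lrp2 alone did not differ along Ttr and Apoa1 beyond the spread of embryos, and these few UMIs limit that statement. Median UMIs by embryo were 14223 to 23159 in the first set and 13575 to 33767 in the last. No test was run between these sets, since Ttr and Apoa1 chose them. When gut cells under 1 UMI were set alone against neural plate, Ctsh (3.31 ± 0.29, adjusted p = 2.97e-06), Amn (2.05 ± 0.38, adjusted p = 0.00098), Lgmn (0.92 ± 0.21, adjusted p = 0.00356) and Lrp2 (-2.18 ± 0.16, adjusted p = 5.22e-07) stayed called by edgeR. Dab2 (0.37 ± 0.26), Ctsl (0.19 ± 0.14) and Cubn (-0.87 ± 0.58) were not called in them. This set was chosen after the values were seen. The neural plate cells were not limited by Ttr and Apoa1, so the 2 sides were not chosen alike. By embryo, Ttr and Apoa1 summed to 23.0 to 35.8 CPM in these gut cells and 19.6 to 107 CPM in neural plate. How much this choice of cells lowered the gut values was not tested.

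Within the visceral endoderm, cells were divided into 3 equal groups of each embryo by Ttr and Apoa1. Ctsl went from 2556 ± 313 over 3262 ± 456 to 3808 ± 290 CPM, Ctsh was at 600 ± 80.2, 777 ± 44.3 and 931 ± 119 CPM, and Amn at 595 ± 41.6, 761 ± 53.2 and 920 ± 68.9 CPM. The lowest and highest groups did not overlap for these 3 genes. Cubn (809, 912 and 899 CPM), Dab2 (1260, 1383 and 1319), Lgmn (853, 1011 and 1067) and Lrp2 (240, 249 and 202) differed by less. Within each embryo, Lgmn and Cubn were also higher in the highest than in the lowest group in 3 of 3, whereas Dab2 was in 2 of 3 and Lrp2 in 1 of 3. Just inside the cut-off, in 57 cells at 30 to 40 UMIs per 10000, Cubn was at 453 ± 72.7 and Dab2 at 694 ± 94.1 CPM. Just outside it, in 83 cells at 20 to 30, Cubn was at 263 ± 63.9 and Dab2 at 465 ± 106 CPM. Those 83 cells were taken whatever their class, whereas the 57 were visceral-endoderm-like only, so the 2 sets were not chosen alike. Median UMIs by embryo were 21154.5 to 35926.5 in the 83 cells and 25697 to 41728 in the 57. In all visceral-endoderm-like cells they were 15756 to 27788.

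**Figure D4:**
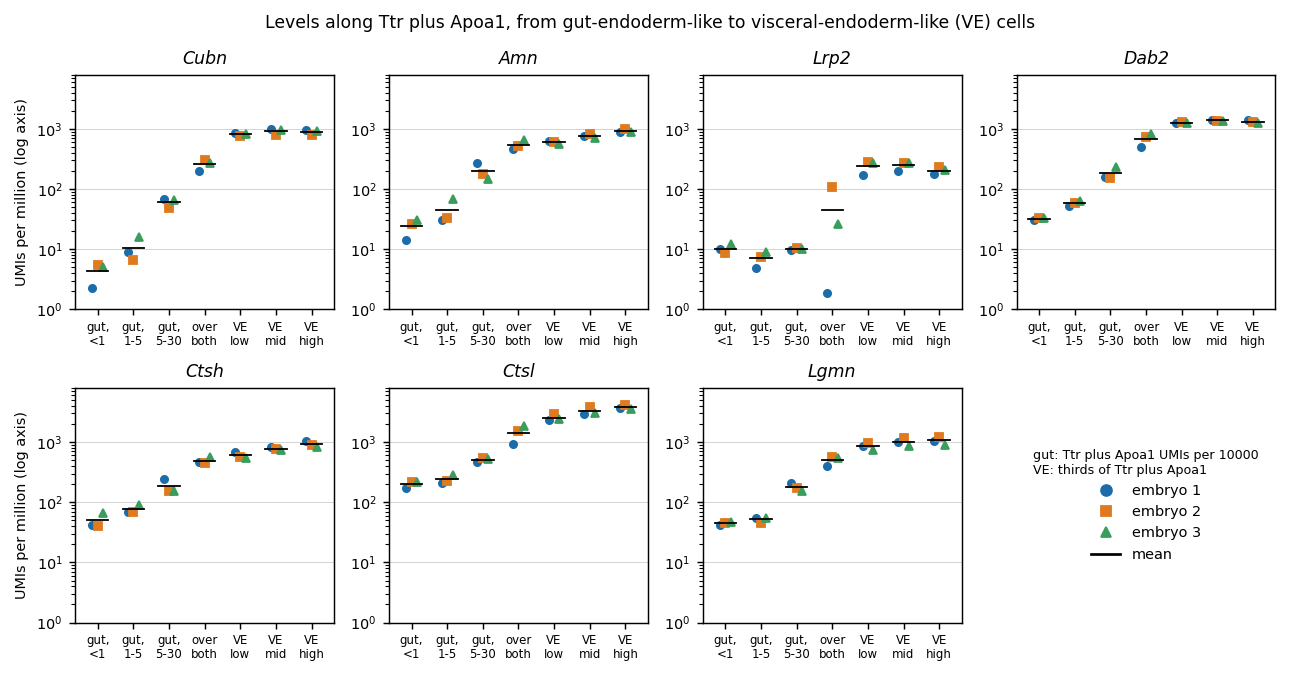
CPM (log axis) of the 7 genes in gut-endoderm-like cells by their Ttr and Apoa1 UMIs per 10000, in cells over both endoderm cut-offs and in 3 groups of visceral-endoderm-like (VE) cells; points are embryos and bars are means. Cubn went from 4.24 to 60.9 CPM along the gut cells, and Lrp2 stayed between 7.03 and 10.2.

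The wider pathway was described by 6 lists of genes that hold none of the 7, again for visceral against gut endoderm. Over all genes, 33.4% were called higher in the visceral endoderm and 34.0% lower, and the counts of each list stand beside these shares. Of 27 endocytic receptors and adaptors tested, 17 were higher in the visceral endoderm and 6 lower, with a median of 0.53 (log2; -0.02 over all genes). The lipoprotein receptor gene Scarb1 (2.80 ± 0.11; 79.9 and 13.0 CPM) and the clathrin chain genes Cltb (2.75 ± 0.19) and Cltc (2.03 ± 0.08; 652 and 183 CPM) were the largest increases. Sort1 (-2.50 ± 0.17), a sorting receptor, and Tfrc (-1.68 ± 0.20), the transferrin receptor, were lower, so the receptors did not move as 1 group. Of 18 endosome traffic genes, 14 were higher and 0 lower (median 1.36); with library size as the scaling 13 were higher and 2 lower. The early endosome tether Eea1 (3.81 ± 0.11; 185 and 15.1 CPM), the retromer subunit Vps26a (2.57 ± 0.11) and the sorting nexin Snx2 (2.13 ± 0.08) led.

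Of 37 acid hydrolases and their helpers, 21 were higher and 4 lower (median 0.43); with library size as the scaling the counts were 16 and 7. Ctsb, the gene of cathepsin B, was at 847 ± 72.7 CPM in the visceral endoderm and 60.7 ± 5.04 in gut (3.99 ± 0.09), and Neu1 (3.30 ± 0.12) and Manba (3.18 ± 0.19), which cleave sugars from glycoproteins, followed. Ids (-1.32 ± 0.22), Ctsf (-1.16 ± 0.21) and Gusb (-0.88 ± 0.12) were lower, at under 30 CPM in both classes. Lysosome membrane and proton pump genes had the highest share, with 22 of 26 higher and 3 lower (median 1.47). The pump subunit genes Atp6v0b (2.65 ± 0.12; 771 and 141 CPM), Atp6v0d1 (2.62 ± 0.10) and Atp6v1a (2.56 ± 0.10) led, and Scarb2 (-1.20 ± 0.25), Laptm4a (-0.65 ± 0.08) and Laptm4b (-0.57 ± 0.16) were lower. Without embryo 2 or without embryo 3, Laptm4b was no longer called.

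Of 10 transcription factors with roles in lysosome or endoderm genes, 6 were higher and 3 lower. Hnf4a, a factor of absorptive and hepatic epithelia, was at 96.2 ± 1.58 CPM in the visceral endoderm and 2.14 ± 0.67 in gut (5.77 ± 0.15). Tfeb (5.09 ± 0.19; 44.1 and 1.59 CPM) and its relative Tfec (5.36 ± 0.25; 23.5 and 0.71 CPM) were also higher. Foxa2 (-0.85 ± 0.11) and Gata6 (-0.64 ± 0.15) were lower, and Sox17 (-1.92 ± 0.16) is among the genes that set the gut class. Of 7 carriers of cobalamin and other vitamins, 4 were higher and 2 lower. The retinol carrier Rbp4, which is also a check marker of the visceral endoderm, was at 4966 ± 298 and 70.1 ± 17.3 CPM (6.35 ± 0.18). The folate receptor gene Folr1 (4.15 ± 0.13; 358 and 23.4 CPM) and Gc, the vitamin D binding protein (5.86 ± 0.53; 5.06 and 0.087 CPM), were higher. Cd320, the cellular receptor for transcobalamin (-1.01 ± 0.10; 43.2 and 99.7 CPM), and Lmbrd1, which exports cobalamin from the lysosome (-0.33 ± 0.13), were lower. The call of Lmbrd1 was lost in 10 of the alternatives.

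**Figure D5:**
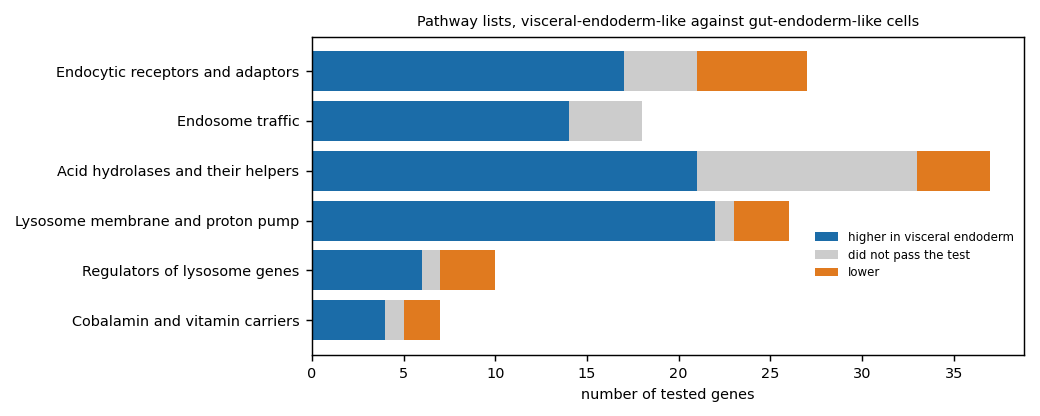
Number of tested genes of each pathway list that were higher, lower or did not pass edgeR's test (adjusted p of 0.05) in visceral-endoderm-like against gut-endoderm-like cells. The lysosome membrane and proton pump list has 22 of 26 genes higher and 3 lower.

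Between surface ectoderm and neural plate, where 11.0% of all genes were called higher and 8.47% lower, the lists gave 5 higher and 2 lower of 27 endocytic genes, 4 and 0 of 18 endosome genes, 4 and 2 of 33 hydrolases, 6 and 0 of 25 membrane and pump genes, 0 and 3 of 6 factors and 0 and 1 of 6 carriers. Between gut endoderm and neural plate, 30 of 37 hydrolases were higher and 0 lower (median 0.85), next to 13 and 1 of 26 membrane and pump genes and 15 and 1 of 27 endocytic genes. In gut against neural plate, 26.2% of all genes were called higher, against 81.1% of the hydrolases. Ttr and Apoa1 summed to a mean of 222 CPM in gut and 61.3 CPM in neural plate. The lists were not counted again in gut cells low in both, so whether this bears on the counts was not tested. No test was run on the lists.

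The genes most like each of the 7 were found by Pearson's r of log2(CPM + 1) over the means of 14 classes, among 10289 genes with at least 10 CPM in a class. Cubn was most like S100g (r = 0.995), Fga (0.990) and Apoa4 (0.990), and Amn was most like Afp (0.991), BC025446 (0.991) and Pga5 (0.990). Lgmn was most like Slc35f6 (0.989), Pgc (0.984) and Tcn2 (0.982), the last being transcobalamin, and Ctsh was most like Prss12 (0.978), Kdelr3 (0.976) and Ap2a2 (0.960). Ctsl was most like Tmem144 (0.974), Sec14l2 (0.969) and Scp2 (0.965), and Dab2 was most like the lysosomal tetraspanin gene Cd63 (0.950), Mfsd11 (0.926) and Cnih4 (0.924). The nearest genes to Lrp2 were less alike, with Tinagl1 at 0.855, Snf8 at 0.832 and Sdc4 at 0.828. Among the 7 themselves, r was highest for Amn with Lgmn (0.958) and lowest for Lrp2 with Ctsh (0.367). Dab2 was at 0.845 with Cubn, 0.788 with Lrp2 and 0.775 with Amn, so over all classes it was not closest to Lrp2. The class means share the same 3 libraries, and 1 class, the visceral endoderm, is far from the others for most of these genes.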

How the data were processed

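Wild-type embryos without their extraembryonic tissue were profiled with the Chromium single cell 3' v3 protocol, 1 library per embryo. Per the submitters' processing notes the reads were processed with Cell Ranger 3.1.0 against mm10. The authors deposited raw counts of UMIs per feature for every barcode called a cell, without normalization, and these counts were used as deposited. No deposited column of another sample was left out (0).

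Barcodes with at least 1500 genes, at most 8500, 7500 or 8500 genes (embryos 1, 2 and 3) and at most 10% mitochondrial UMIs were kept, after the study's limits. Barcodes under 0.5% mitochondrial UMIs (334, 160 and 79) were removed in place of the study's removal of clusters. The deposited files give no cluster of each cell here, so classes were set by marker UMIs (at least 2 markers with a UMI, except for Ttr and Apoa1). The marker lists follow known genes, and all cut-offs but that of 30 were set from the marker distributions. Many cells met no or several cut-offs, and the cause of this was not tested. No doublet call was applied; Scrublet (scanpy 1.11.5) by its own threshold marked 2, 211 and 181 cells, and removal of the top 6% of scores was an alternative.

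UMIs were summed per embryo and class (at least 10 cells) and tested with edgeR 4.0.16 (R 4.3.3; TMM, filterByExpr, glmQLFit and glmQLFTest) at an adjusted p of 0.05 (Benjamini-Hochberg), so the embryo and not the cell was the replicate. CPM here are counts divided by the summed counts of a class and embryo. Standard errors come from the F statistic. The same embryos give both sums of a comparison; deviations of same-embryo sums from class means correlated at 0.187 to 0.496 across genes. The embryo block was an alternative. On simulated data with 200 changed genes in each of the 5 comparisons (11734 to 13112 genes), 77.9% (gut endoderm against neural plate) to 84.8% (visceral endoderm against neural plate) of those changed 2-fold and 98.9% (visceral against gut endoderm) to 100% of those changed 4-fold were recovered. Of the calls, 3.35% (gut endoderm against neural plate) to 10.5% (surface ectoderm against neural plate) were false. The simulated sums were independent and only these 200 genes differed. In the data, 67.3% to 76.5% of genes were called in the visceral endoderm comparisons and sums of an embryo correlated. The simulated rates thus hold for that simpler setting only. DESeq2 1.42.0 was an alternative; the others were the scaling, the filter, 1 fit over all classes, the quality limits, the cut-offs (15 or 60 for Ttr and Apoa1; others halved or doubled), cells over several cut-offs assigned, thinning to 5000 UMIs and each embryo left out.

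The 7 genes, lists and markers were chosen with earlier results of these data known. Genes named from a pathway list are the called genes with the 3 largest changes each way in visceral against gut endoderm with the same sign in every embryo (1 of them is not reported here), and likeness names the 3 highest r of each member. Promoter windows were from RefSeq; protein sequences were not used here. Limits given for a count of 0 (3 counts of the total) cover counting error only.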

Additional observations from a re-analysis of the deposited data

Results flagged for a closer look

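Cells over both the visceral and the gut endoderm cut-offs entered no comparison. There were 73 of them (18, 31 and 24 in embryos 1, 2 and 3), and every one of the 7 genes was above its gut-endoderm-like level in their mean: Cubn at 257, Amn at 541, Dab2 at 685, Ctsh at 494, Ctsl at 1435 and Lgmn at 506 CPM. Lrp2 was at 45.5 CPM with 1.84, 109 and 25.8 CPM in embryos 1, 2 and 3, on 1, 56 and 10 UMIs, so its value rests on embryo 2.

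Of the 573 barcodes under the mitochondrial floor, 80 were over the visceral endoderm cut-off, with a median of 4940 to 6439 UMIs by embryo. Dab2 was at 1676 and Ctsh at 719 CPM in them, near or above the level in visceral-endoderm-like cells. Ctsl (2258), Amn (496) and Lgmn (494) were lower than there, and Cubn (86.2 CPM, on 40 UMIs) and Lrp2 (28.4 CPM, on 14 UMIs) were far lower.

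EGFP, a reporter sequence among the features of these wild-type embryos, had 31 UMIs in embryo 1 and 32 in embryo 3, above the 3 counts that a value of 0 allows, and 0 in embryo 2. The cause of these 3 patterns was not tested.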

How the results depend on the processing

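All 7 genes stayed called in visceral against gut endoderm and against neural plate under every alternative run, and over the 5 comparisons 581 of the values of the 7 genes under alternatives kept their direction and side of the threshold, 7 lost the call, 4 gained it and 7 turned. The values that turned were Lrp2 in visceral endoderm against surface ectoderm with other cut-offs doubled (-0.12); Cubn in surface ectoderm against neural plate with the top Scrublet scores removed (0.080), with the visceral cut-off at 15 (0.17) and without replicate 2 (0.29; -0.75 to 0.29 over the embryos left out); Lgmn there with the visceral cut-off at 60 (-0.30) and without replicate 3 (-0.042; -0.042 to 0.62 over the embryos left out, called without replicate 2); and Cubn in gut endoderm against neural plate with gut cells under 1 UMI of Ttr and Apoa1 alone (-0.87), an alternative added after seeing the data. None of these was called after it turned. In the last of them the neural plate cells were not limited by Ttr and Apoa1. Cubn in gut against neural plate gained its call without the filter on low counts (0.77), with the replicate block (0.97) and with the top Scrublet scores removed (1.49); Ctsl there lost its call with the visceral cut-off at 60 (0.43).

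After thinning to 5000 UMIs, 5349 of 8450 tested genes were called for visceral endoderm against surface ectoderm (8174 of 11734 before). The counts were 1154 of 9248 for surface ectoderm against neural plate (2329 of 11952 before). For gut endoderm against neural plate they were 3952 of 9847 (6216 of 12572 before). The replicate block gave 4300 called genes for surface ectoderm against neural plate, and leaving out an embryo 1400 to 1576 there. The cause of these changes was not tested. The block changed no call of the 7 genes but that of Cubn. Of the levels over 14 classes, 1049 values under alternatives moved by less than 1 SD of the embryos and 120 by more. The 1049 include means with an embryo left out. Leaving out an embryo cannot move such a mean by 1 SD, so these values do not speak for stability. Few UMIs limit Lrp2 (1), Ctsh (3), Amn (4), Cubn (6) and Dab2 (7) in primordial germ cells (59 cells), and 3 embryos limit every test.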
